A study of Mus musculus with 141 samples.

Results

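Expression of the renin-angiotensin system was examined through 9 genes, Agt, Ren1, Ace, Agtr1a, Agtr1b, Agtr2, Mas1, Enpep and Mme, out of 24423 genes listed for each library. The genes were chosen by symbol, as the substrate, the enzymes and the receptors of the system, and all 9 were found in the files. RNA-seq was performed on liver, lung and kidney from 1 male mouse of each of 47 Collaborative Cross (CC) strains, which gave 47 libraries per organ. The CC is a panel of recombinant inbred mice whose genomes are mosaics of a common set of founder strains. All mice were 8 to 12 weeks old and ate the same diet. All were held in mesh chambers supplied with clean air for 6 hours a day on weekdays, so the organ groups share this handling, and there was no other treatment. The mice were bled out under nembutal anaesthesia before the organs were frozen. The strain is the replicate. Because each strain had 1 mouse, differences among strains cannot be told apart from differences among individual mice.

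Angiotensinogen, the product of Agt, is a plasma protein made mainly by hepatocytes. Renin, secreted into blood by juxtaglomerular cells of the kidney, cuts angiotensin I from its end, and angiotensin-converting enzyme (Ace), abundant on the capillary endothelium of the lung, shortens this peptide to angiotensin II. Angiotensin II acts through type 1 receptors (Agtr1a and Agtr1b in rodents) to constrict vessels, retain salt and release aldosterone, and through the type 2 receptor (Agtr2), whose actions largely oppose these. Aminopeptidase A (Enpep) and neprilysin (Mme) degrade or convert the peptides, and Mas1 is a receptor for one of the products, angiotensin-(1-7).

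The sequences below show the peptide the system is built on and the catalytic motif that its metallopeptidases share. They are spliced coding sequences of the GENCODE vM1 gene models for the NCBIM37 assembly, 5′ to 3′ on the coding strand. The Enpep stretch crosses an exon junction, and the others each lie in 1 exon. In Agt the capitals mark the codons of angiotensin II and the whole run encodes angiotensin I. It lies in 1 exon at chr8:127088350-127088379 on the minus strand and covers codons 30 to 39 of the gene model. In the enzymes the capitals mark the 5 codons of the zinc-binding motif (His-Glu-X-X-His), which Ace holds in each of its catalytic domains.
Agt, angiotensin I: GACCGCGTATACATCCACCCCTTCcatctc
Ace, motif 1: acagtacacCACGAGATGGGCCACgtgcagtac
Ace, motif 2: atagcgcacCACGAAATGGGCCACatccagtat
Enpep: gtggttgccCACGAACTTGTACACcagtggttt
Mme: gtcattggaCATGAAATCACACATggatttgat

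The library totals ranged from 1738046 to 42158454 counts with a median of 9043226, and 3 counts, taken as the floor for a library, corresponded to a median of 0.332 CPM (counts per 1e6 counts of the library). Levels are given as TPM (transcripts per 1e6 transcripts), which corrects for transcript length and expresses a gene as a share of the library. Organ differences are log2 ratios of counts after TMM scaling (trimmed mean of M-values), which sets the typical gene equal between organs. Both scales matter here. On the log2(TPM + 1) scale the median of the 12127 genes tested was shifted by -1.21 between liver and lung, by -0.72 between liver and kidney and by 0.47 between lung and kidney. Defining markers were high in their organs: the summed TPM of 5 hepatocyte genes was 36173 to 153831 in liver, of 5 lung epithelial genes 19301 to 165409 in lung and of 5 tubule genes 28701 to 161341 in kidney. One liver library, of strain CC006, had a summed level of 4 adrenal cortex genes of 1725 TPM against at most 19.2 in the other livers, and 1 lung library, of strain CC010, had 2574 TPM of hepatocyte genes against at most 554 in the other lungs. In bulk tissue, fewer cells of a type and less RNA per cell cannot be told apart.

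**Figure D1:**
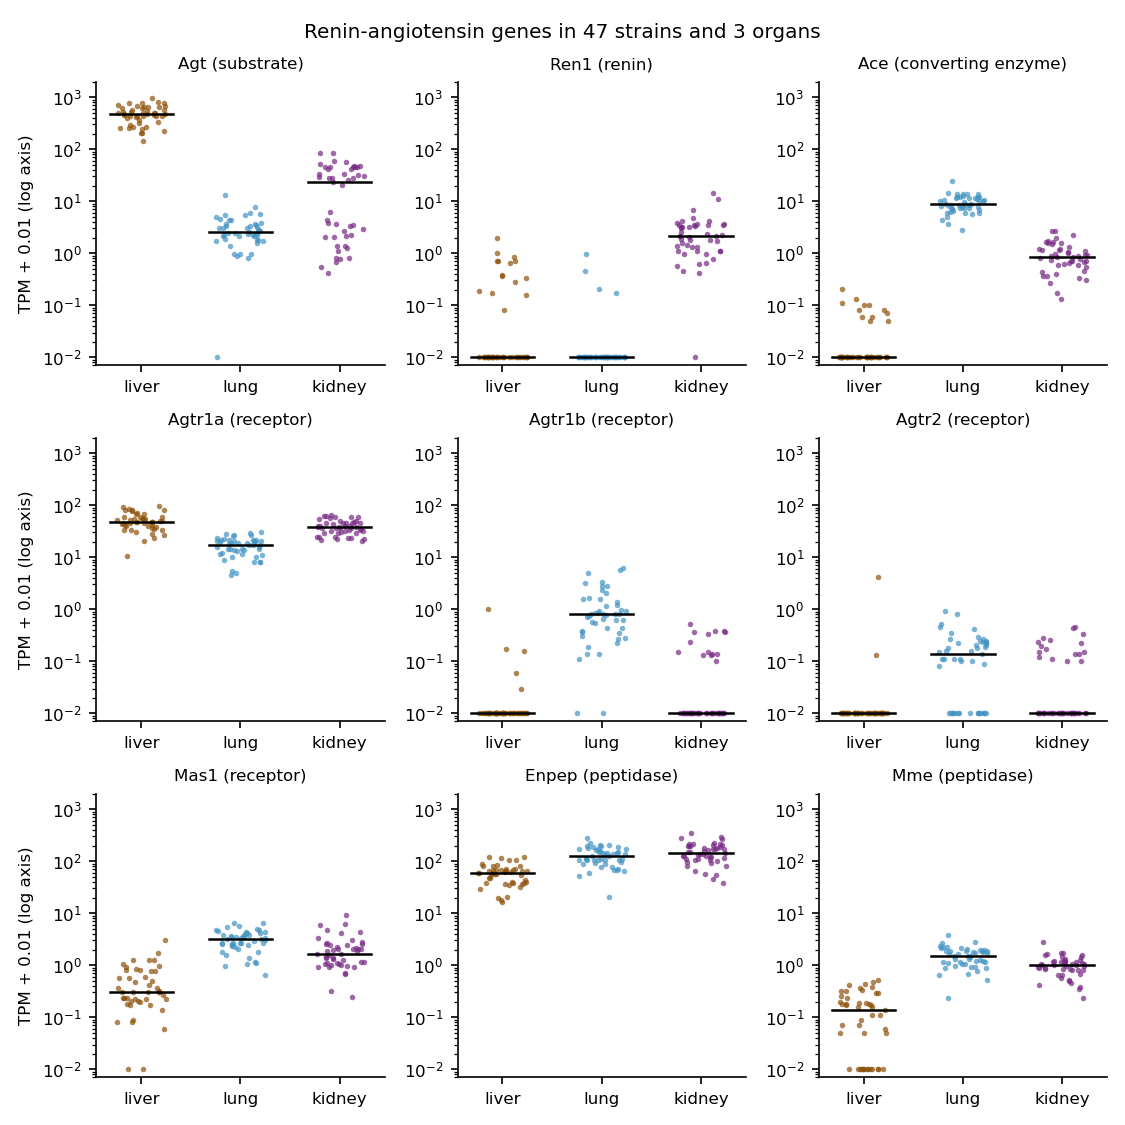
TPM of each of the 9 genes in liver, lung and kidney (log axis, 0.01 added so that zeros are shown at the bottom), with 1 point per strain and a bar at the median of 47 strains. Agt is highest in liver, Ace in lung, Ren1 in kidney, and Agt in kidney forms an upper and a lower band.

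Of the 9 genes, 6 passed the expression filter (more than 1 CPM in at least 30% of libraries) and were tested for differential expression, which were Agt, Ace, Agtr1a, Mas1, Enpep and Mme. Between liver and lung, 5 of the 6 were differentially expressed (limma-voom with strain as a block, q ≤ 0.1 and at least 1 log2 unit), against 54.9% of all genes tested. Of these, 2 were higher in liver (23.7% of all genes) and 3 in lung (31.2%). Between liver and kidney, 5 of the 6 were differentially expressed against 36.6% of all genes, with 2 higher in liver (14.7%) and 3 in kidney (22.0%). Between lung and kidney, 3 of the 6 were differentially expressed against 46.3% of all genes, with 1 higher in lung (24.6%) and 2 in kidney (21.7%). The ranges of TPM over the 47 libraries were apart for 2 of the 6 genes between liver and lung (17.4% of all genes), for 1 between liver and kidney (11.9%) and for 1 between lung and kidney (10.5%). With 6 genes, shares of this kind are coarse, and they are given as a description. The median absolute log2 difference of the 6 genes was 2.52, 1.62 and 1.33 in the same order of comparisons, beside 1.16, 0.64 and 0.88 over all genes tested. The 3 comparisons share libraries. The direction of calls over all genes depended on the scale: the first organ was higher in 43.2%, 40.045% and 53.2% of calls on TMM-scaled counts and in 12.6%, 16.3% and 70.5% on log2(TPM + 1).

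**Figure D2:**
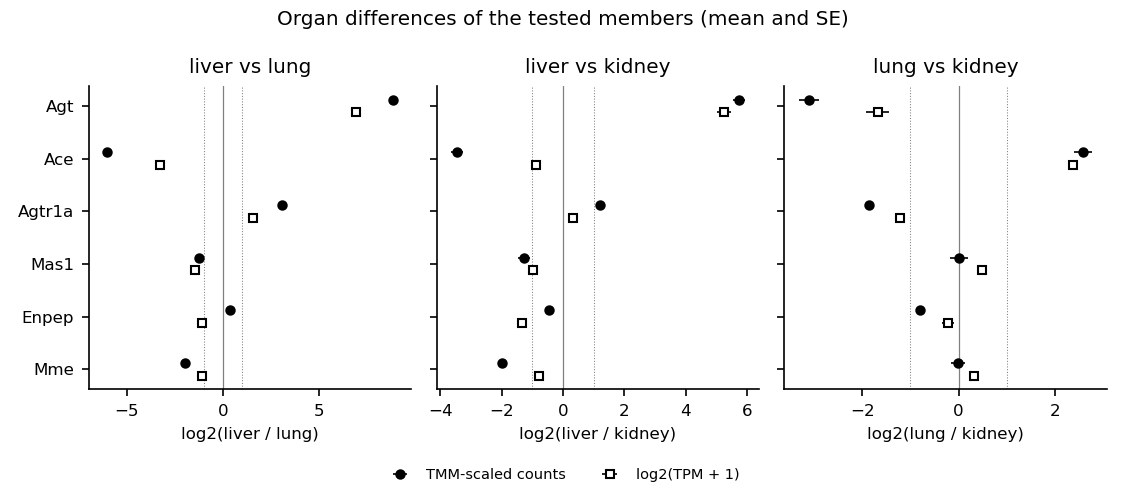
Log2 difference between organs (x axis, mean and SE) of the 6 tested genes, from TMM-scaled counts (filled circles) and from log2(TPM + 1) (open squares), with dotted lines at 1 log2 unit either way. Agt and Ace keep their direction on both scales, and Enpep between liver and lung changes side.

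Agt (chr8:127080434-127093606, minus strand) had the highest TPM of the members in liver, with 145 TPM in CC033 as the lowest, a median of 478 and 981 in CC032 as the highest. In kidney it ranged from 0.41 TPM in CC021 to 85.6 in CC040 with a median of 23.1, and in lung from 0 in CC036 to 13.0 in CC010 with a median of 2.51. All 47 livers were above all lungs and all kidneys, whereas lung and kidney overlapped. The difference between liver and lung was 8.83 ± 0.21 (SE, log2 of TMM-scaled counts, q = 8.99e-63, limma-voom) and between liver and kidney 5.73 ± 0.19 (q = 8.76e-51), each in 47 of 47 strains. Kidney was above lung in 37 of 47 strains (lung minus kidney, -3.10 ± 0.21, q = 2.19e-26, limma-voom). The highest lung value belongs to the CC010 library named above, where 29 Agt counts stood beside an albumin (Alb) level of 1170 TPM against a median of 84.7 in the other lungs. Without CC006 and CC010 the Agt difference was 8.85 between liver and lung and -3.11 between lung and kidney. Over the 47 lungs, CC010 included, Agt and the summed hepatocyte markers had r = 0.38 (rho = 0.28). With the summed kidney tubule markers Agt had r = 0.18 (rho = 0.31). All other marker sets had a negative r, the lowest with adrenal cortex markers (r = -0.37, rho = -0.36). Whether hepatocyte RNA contributed to lung Agt was not tested. These values are a description of libraries that share a scaling.

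Kidney Agt did not vary smoothly over strains. In 22 strains it lay between 0.41 and 6.25 TPM (1 to 34 counts) and in 25 strains between 20.5 and 85.6 TPM (74 to 552 counts), and no strain fell between 6.25 and 20.5. This gap of 3.28-fold was the widest of any member with at least 6 strains on either side and a median count above 3. The total counts of the kidney libraries overlapped across the gap, 3182337 to 14753810 below the gap and 3046695 to 15028553 above it. The SD of kidney Agt over strains was 2.36 on the log2 CPM scale, where counting alone would give 0.14, and 99.8% of the 12086 genes with a median count above 3 in kidney had a smaller SD. Agt in liver had an SD of 0.38, below the median SD of 0.45 over liver genes, and Agt in lung an SD of 0.95 with 0.42 from counting. The SD was higher in kidney than in liver (liver minus kidney, -1.97, p = 1e-05, the smallest the permutations can give, q = 4.7e-05, permutation test) and than in lung (lung minus kidney, -1.41, with the same p and q).

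**Figure D3:**
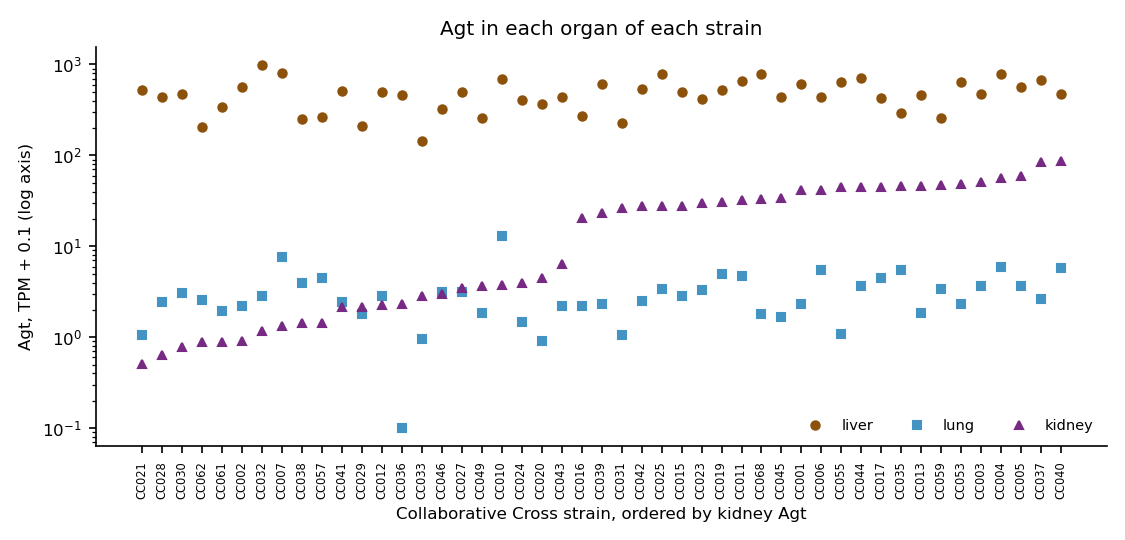
TPM of Agt (log axis, 0.1 added) in the liver, lung and kidney of each of the 47 strains, ordered from the lowest to the highest kidney value. The kidney series steps from 6.25 to 20.5 TPM between neighbouring strains while the liver points stay above 145 TPM throughout.

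Because kidney Agt fell into separate clusters, its correlations were computed within each cluster and not over all strains. Among the 22 strains below the gap, kidney Agt and liver Agt had r = -0.08 (rho = -0.11), and among the 25 above it r = 0.11 (rho = 0.01). None of 16 such correlations, with Agt in the other organs and with the other resolved kidney members, passed q ≤ 0.1 (permutation tests). The strongest was with lung Agt in the 25 strains above the gap (r = 0.46, p = 0.0206, rho = 0.54, p = 0.00671, permutation tests), where the adjusted values were 0.329 and 0.107. Albumin RNA, as a sign of hepatocyte transcripts, was itself at 1.58 to 550 TPM in kidney. Agt equalled 0.767% of Alb TPM in liver as a median (0.348% to 2.34%), 2.94% in lung (0 to 131%) and 24.8% in kidney (0.618% to 248%).

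Reads of renin were few. Ren1 (chr1:135247087-135256902, plus strand) had a median of 8 counts in kidney and did not pass the expression filter, so its organ differences are given as a description. In kidney it ranged from 0 TPM in CC027 to 14.2 in CC017 with a median of 2.10, and 39 of 47 libraries had more than 3 counts. In liver the median was 0 and the highest value 1.93 TPM in CC021, and in lung the median was 0 and the highest 0.94 in CC037. Over all libraries of an organ, 621 Ren1 counts were found in kidney, 46 in liver and 6 in lung, which is 1.52 CPM (95% Poisson interval 1.40 to 1.64), 0.0900 (0.0659 to 0.120) and 0.0139 (0.00510 to 0.0303). Kidney was the higher organ in 44 of 47 strains against liver and in 46 of 47 against lung. The spread of kidney Ren1 over strains was 1.05 on the log2 CPM scale, with 0.50 expected from counting.

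The level of Ren1 is uncertain for another reason. Some inbred mice carry a second renin gene, Ren2, which is nearly identical to Ren1, and the files list it separately. Only uniquely aligned reads were counted, so reads that match both genes may be missing from both. Ren2 held 161 counts over the 47 kidneys, 124 over the livers and 2 over the lungs. Its highest liver values were 4.53 TPM in CC049 and 1.93 in CC006. Whether strains with and without Ren2 differ in Ren1 counts was not tested. In the NCBIM37 assembly, made from a strain with Ren1 alone, 99.6% of the 50-base windows of Ren1 exons occur once. Akr1b7, which marks renin cells but is also made in the adrenal cortex, had a median of 6.04 TPM in kidney (0.60 to 17.7).

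Ace (chr11:105829259-105851278, plus strand) was highest in lung. It ranged there from 2.77 TPM in CC033 to 24.04 in CC006 with a median of 8.78, in kidney from 0.12 in CC012 to 2.71 in CC005 with a median of 0.85, and in liver from 0 to 0.20 with a median of 0. In TPM every lung library exceeded every kidney and every liver library, and all 47 livers were at 3 counts or fewer. On TMM-scaled counts lung exceeded kidney by 2.59 ± 0.19 (log2, q = 5.26e-24, limma-voom), in 46 of 47 strains, and kidney was higher in 1. Lung and kidney both exceeded liver in 47 of 47 strains, but with 17 counts over all livers the size of these differences depends on the scale, and over the alternatives run the liver minus lung value moved between -7.34 and -3.27 and the liver minus kidney value between -4.44 and -0.89, the last on log2(TPM + 1) and under 1 log2 unit. The pooled level was 14.1 CPM (95% Poisson interval 13.8 to 14.5) in lung, 1.68 (1.56 to 1.81) in kidney and 0.0333 (0.0194 to 0.0533) in liver. Such intervals cover counting error only.

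Ace level is not comparable with that of the other members. The files give several transcripts for Ace and for Mme and 1 for the rest, and genes with several named transcripts were generally low in these files: the median gene had 0.408 CPM in lung where more than 1 transcript was named and 2.73 CPM where 1 was named. A gene on the opposite strand, Gm11651, overlaps Ace, with 109 counts over the lungs beside 6106 for Ace, and whether the counting used strand is not given in the sources used here. Summed endothelial markers were 192 to 1376 TPM in lung, 35.6 to 117 in kidney and 18.9 to 75.3 in liver, so these moved with Ace across organs. Within lung, Ace and the endothelial sum had r = -0.25 over 47 strains, and the largest marker correlation of lung Ace was with mast cell genes (r = -0.53). These are descriptions of libraries that share a scaling, and the part of cell content in Ace levels was not tested.

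Agtr1a (chr13:30428310-30474736, plus strand) was the more abundant type 1 receptor gene in every organ. It ranged in liver from 10.45 TPM in CC033 to 94.7 in CC032 with a median of 48.3, in kidney from 20.7 in CC024 to 63.5 in CC017 with a median of 37.65, and in lung from 4.59 in CC024 to 30.2 in CC007 with a median of 17.2. Lung was lowest in the organ order, and liver and kidney overlapped across most of their ranges. Liver exceeded lung by 3.07 ± 0.07 (log2, q = 3.32e-65, limma-voom) and kidney exceeded lung, with -1.86 ± 0.07 as lung minus kidney (q = 8.78e-46, limma-voom), each in 47 of 47 strains. The order of liver over kidney depended on the scale for its size. It was 1.22 ± 0.07 (q = 1.05e-31, limma-voom, 47 of 47 strains) on TMM-scaled counts but 0.32 ± 0.10 (q = 0.00267, limma) on log2(TPM + 1), under the threshold of 1 log2 unit, where kidney had the higher TPM in 13 strains. Measured from the median of all genes the TPM difference was 1.04.

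The type 1 receptors are encoded by separate genes of like sequence. A 90-base stretch of their coding sequences is shown to let the reader judge how well 50-base reads can tell them apart, with the 7 differing bases in capitals, at chr13:30472931-30473020 (plus strand) and chr3:20215165-20215254 (minus strand).
Agtr1a: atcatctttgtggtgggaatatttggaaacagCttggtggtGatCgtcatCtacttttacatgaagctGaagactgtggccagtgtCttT
Agtr1b: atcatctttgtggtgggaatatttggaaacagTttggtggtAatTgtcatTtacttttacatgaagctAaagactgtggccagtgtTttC

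Over 1080 coding bases the receptors differ at 99 (90.8% identical), with a median of 4 differences per 50-base window and a longest identical run of 66 bases. Their proteins, of 359 residues each, are 93.9% identical, whereas Agtr1a shares 35.0% with Agtr2 and 22.7% with Mas1. In each of the genes 33 exon windows recur elsewhere in the genome, and 98.5% of windows of Agtr1a and 98.4% of Agtr1b occur once.

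Agtr1b (chr3:20213395-20266099, minus strand) was found chiefly in lung, where it ranged from 0 TPM in CC015 to 6.15 in CC003 with a median of 0.80, or 4 counts. Over all libraries it held 397 counts in lung, 23 in kidney and 11 in liver, 6 of the last in the CC006 liver alone. It did not pass the filter and lung was the higher organ in 44 of 47 strains against liver and in 39 of 47 against kidney. Its spread over lungs was 1.22 on the log2 CPM scale, with 0.61 expected from counting.

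Agtr2 (chrX:21061670-21066290, plus strand), the type 2 receptor, was at or near 0 in every organ. Of 47 libraries, 46 livers, 46 kidneys and 40 lungs had 3 counts or fewer, and the highest lung value was 0.90 TPM in CC021. The single liver above the floor was that of CC006, with 33 of the 36 liver counts (4.17 TPM, against at most 0.12 in the other livers). The same library held 9933 counts of Star, 2358 of Cyp11b1, 2276 of Cyp11a1 and 1598 of Akr1b7, genes of steroid synthesis and of the adrenal cortex, where the other livers held at most 101, 20, 29 and 62. Whether adrenal tissue contributed to this library was not tested. Leaving it out takes Agtr2 and Agtr1b in liver to at most 3 and 2 counts in any library.

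Mas1 (chr17:13033945-13061009, minus strand) ranged in lung from 0.63 TPM in CC049 to 6.57 in CC053 with a median of 3.22, in kidney from 0.24 in CC027 to 9.34 in CC046 with a median of 1.66, and in liver from 0 in CC033 to 3.06 in CC053 with a median of 0.29. Liver was below lung by 1.27 (liver minus lung, -1.27 ± 0.19, q = 1.16e-09, limma-voom) in 40 of 47 strains and below kidney (-1.26 ± 0.19, q = 1.85e-09, limma-voom) in 37. On log2(TPM + 1) the liver minus kidney value was -0.98 ± 0.10, under 1 log2 unit. In liver the median was 5 counts, and 17 of 47 libraries had 3 counts or fewer. The values for lung and kidney were not distinguished on TMM-scaled counts (0.0093 ± 0.18, q = 0.963, limma-voom), and on log2(TPM + 1) lung was higher by 0.48 ± 0.10. Measured from the median of all genes on log2(TPM + 1), the lung minus kidney difference of Mas1 was 0.011. The liver minus lung value was -0.25 and the liver minus kidney value -0.26 on that measure. With log2(TPM + 0.1) in its place, these liver values were -1.17 and -1.04. The gene for the noncoding RNA Airn lies over Mas1 on the other strand in the annotation, and was itself at a median of 15.8 TPM in lung, 18.7 in kidney and 0.70 in liver, so it was low in the organ where Mas1 was low. If the counting ignored strand, reads of the pair cannot be told apart.

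Enpep (chr3:128972093-129035638, minus strand) was present in all organs. Its TPM was above that of Mme, but several transcripts are named for Mme, so their levels are not comparable. It ranged in kidney from 37.8 TPM in CC023 to 343 in CC049 with a median of 143, in lung from 20.2 in CC015 to 281 in CC033 with a median of 126, and in liver from 16.4 in CC029 to 123 in CC032 with a median of 59.6. The organs overlapped for all pairs. Kidney was above liver (liver minus kidney, -0.45 ± 0.08, q = 8.55e-08, limma-voom, 37 of 47 strains) and above lung (lung minus kidney, -0.80 ± 0.08, q = 1.58e-17, limma-voom, 44 of 47 strains), both under 1 log2 unit. On log2(TPM + 1) the liver minus kidney value was -1.33 ± 0.12 (q = 1.81e-18, limma), past 1 log2 unit, and the lung minus kidney value was -0.22 ± 0.12 (q = 0.0887, limma). The order of liver and lung depended on the scale: liver was higher by 0.35 ± 0.08 on TMM-scaled counts (q = 1.29e-05, limma-voom), whereas on log2(TPM + 1) the value was -1.11 ± 0.12 (q = 8.03e-15, limma), and lung had the higher TPM in 43 of 47 strains. Relative to the median of all genes on the TPM scale, the difference was 0.10.

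Mme (chr3:63099794-63186153, plus strand) was low. It ranged in lung from 0.23 TPM in CC015 to 3.82 in CC045 with a median of 1.51, in kidney from 0.22 in CC041 to 2.73 in CC045 with a median of 1.01, and in liver from 0 to 0.50 with a median of 0.13. Strain CC045 was highest in both lung and kidney. Liver was below lung (liver minus lung, -1.97 ± 0.15, q = 6.00e-23, limma-voom, 45 of 47 strains) and below kidney (-1.98 ± 0.15, q = 7.75e-23, limma-voom, 46 of 47 strains). On log2(TPM + 1) the liver minus kidney value was -0.79 ± 0.06, under 1 log2 unit. In liver the median was 2 counts, and 29 of 47 libraries had 3 counts or fewer. The size of these differences therefore depends on the scale. Over the alternatives run the liver minus lung value moved between -2.86 and -1.11, and the liver minus kidney value between -2.31 and -0.79. Lung and kidney differed by -0.0048 ± 0.15 (q = 0.977, limma-voom), a value whose sign changed with the scale and the fit and which reached 0.54 on log2(TPM + 0.1). Measured from the median of all genes on log2(TPM + 0.1), the lung minus kidney difference of Mme was -0.013. The liver minus lung value was -1.34 and the liver minus kidney value -1.37 on that measure. With log2(TPM + 1) in its place, the 3 values were -0.15, 0.10 and -0.07 in the same order. The caution on genes with several named transcripts holds for Mme too.

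Spread over strains was then compared between organs for the 14 pairs in which a gene was above 3 median counts in both organs, by swapping the centred values of the organs within strain. Of these, 10 passed q ≤ 0.1 (permutation tests). Beside Agt, Mas1 had its highest SD in liver (1.35), followed by kidney (0.92) and lung (0.53). Liver exceeded lung by 0.82 (q = 4.7e-05) and lung fell short of kidney (-0.39, q = 0.00992, permutation tests), where counting alone would give 0.62 in liver. The SD of Enpep was 0.60 in kidney, 0.53 in liver and 0.35 in lung, and kidney exceeded lung (lung minus kidney, -0.26, q = 0.00992, permutation test). The SD of Agtr1a was 0.32 in kidney, the lowest of the 7 members resolved there, 0.40 in liver and 0.48 in lung, and lung exceeded kidney by 0.16 (q = 0.012, permutation test). The differences of Ace (lung minus kidney, -0.25, q = 0.0715) and of Mas1 (liver minus kidney, 0.43, q = 0.0696, permutation tests) passed, but neither did with a prior count of 5 (q = 0.457 and 0.449). On log2(TPM + 1), which compresses low values, 2 of the 14 passed, the Agt kidney comparisons.

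**Figure D4:**
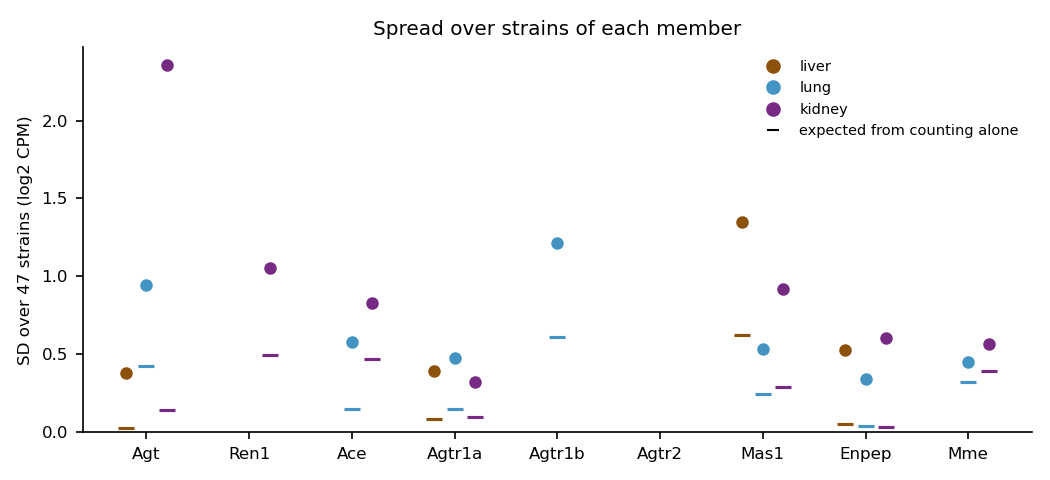
SD over the 47 strains on the log2 CPM scale (y axis) of each member in each organ where its median count was above 3, with dashes at the SD that counting alone would give. Agt in kidney is at 2.36, above every other member and organ, and Agtr1a in kidney is lowest at 0.32.

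To ask whether a strain high for a gene in 1 organ was high in another, 12 pairs of values were correlated over the 47 strains, and 5 passed q ≤ 0.1 for Pearson's r (permutation tests, Benjamini-Hochberg over the 12). For Enpep the correlation was 0.51 between liver and kidney (rho = 0.27, p = 0.00035, q = 0.0042 for r and 0.154 for rho, permutation tests), 0.43 between lung and kidney (rho = 0.26, p = 0.00243, q = 0.0146 and 0.154) and 0.31 for the pair of liver and lung (rho = 0.33, p = 0.036, q = 0.0863 and 0.104). For Agtr1a it was 0.35 between liver and kidney (rho = 0.41, p = 0.0147, q = 0.0588 and 0.053, permutation tests), and for Agt 0.32 between liver and lung (rho = 0.37, p = 0.0277, q = 0.0831 and 0.067, permutation tests). Without the 2 strains farthest from the median of the first organ these values were 0.37, 0.30, 0.18, 0.33 and 0.34 in the same order, and none passed q ≤ 0.1 (smallest q = 0.107). The Agt and Agtr1a values thus moved by little and lost the call near the threshold, whereas all 3 Enpep values fell. Without CC006 and CC010, whose libraries stood apart, the liver and lung correlations of Agt and of Enpep had q = 0.12 and the other 3 passed (permutation tests). For the Enpep liver and kidney pair the strains were CC023 and CC040, the lowest and the third lowest kidneys. The remaining 7 correlations, for Ace, Mas1, Mme and the other Agtr1a pairs, lay between -0.22 and 0.27 (q from 0.129 to 0.436, permutation tests). Over all genes with a median count above 3 in both organs, the median r was 0.18 between liver and kidney, 0.13 between liver and lung and 0.15 for lung with kidney. A higher r than that of Enpep was found for 7.81% of genes between liver and kidney and for 10.3% between lung and kidney.

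Within organs, 42 pairs of members were correlated, leaving out those with kidney Agt, and 0 passed q ≤ 0.1 (smallest q = 0.219, permutation tests). At an unadjusted p under 0.05 there were 8. The strongest were Agt with Agtr1a in liver (r = 0.39, rho = 0.33, p = 0.00735), Ace with Agt in lung (r = 0.36, rho = 0.33, p = 0.0154) and Ace with Enpep in lung (r = -0.35, rho = -0.35, p = 0.0158, permutation tests). Ace in lung had r = 0.31 with the total count of the library and Enpep -0.12. The set of pairs was sensitive to scale, and on rank inverse normal values of TPM, which keep the shift of whole libraries, 24 of the 42 passed.

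The wider pathway was examined through 39 further genes, of which 27 passed the expression filter. Of the 27 tested, on TMM-scaled counts, 8 were higher in liver and 9 in lung in that comparison (limma-voom), beside 23.7% and 31.2% of all genes. Between liver and kidney 3 were higher in liver and 12 in kidney (14.7% and 22.0% of all genes), and between lung and kidney 4 were higher in lung and 10 in kidney (24.6% and 21.7%). The median log2 difference of the 27 was 0.07, -0.60 and -0.51 in the order liver minus lung, liver minus kidney and lung minus kidney, beside -0.07, -0.07 and -0.02 over all genes tested.

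Among angiotensin-processing proteases, 10 of 15 were tested, and the most abundant were the lysosomal cathepsins Ctsd and Ctsb and the angiotensin IV-binding aminopeptidase Lnpep. Ctsd was at 895 ± 325 TPM (SD, n = 47) in lung, 668 ± 181 in kidney and 353 ± 104 in liver. This order depended on the scale, and on TMM-scaled counts Ctsd was slightly higher in liver than in lung (liver minus lung, 0.16 ± 0.05, q = 0.00184, limma-voom) and lower in lung than in kidney (lung minus kidney, -0.21 ± 0.05, q = 4.10e-05, limma-voom). Ctsb was higher in liver than in lung on TMM-scaled counts (1.46 ± 0.04, q = 1.99e-54, limma-voom), with a mean of 220 TPM in liver and 225 in lung. Lnpep was at 171 ± 54.3 TPM in lung, 91.8 ± 23.8 in kidney and 32.6 ± 7.94 in liver, and its differences were under 1 log2 unit in every comparison on TMM-scaled counts. Prcp, the lysosomal carboxypeptidase that trims angiotensin II, was outside the naming rule and is named because it was the 1 gene of the group called between liver and kidney (liver minus kidney, -2.73 ± 0.08, q = 1.52e-55, limma-voom).

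The prorenin receptor Atp6ap2 was at 125 ± 39.4 TPM in kidney, 101 ± 35.9 in lung and 35.6 ± 10.5 in liver, and kidney exceeded both other organs by just under 1 log2 unit on TMM-scaled counts (liver minus kidney, -0.92 ± 0.05, and lung minus kidney, -0.93 ± 0.05). Igf2r, which binds and internalises prorenin, was at 123 ± 34.4 TPM in kidney, 86.4 ± 26.8 in lung and 32.1 ± 8.49 in liver, and kidney was above liver (liver minus kidney, -1.05 ± 0.04, q = 1.03e-47, limma-voom) and above lung (lung minus kidney, -1.12 ± 0.04, q = 2.81e-50, limma-voom). Arap1, a partner of the type 1 receptor, was at 5.09 ± 1.57 TPM in lung, 2.98 ± 0.96 in liver and 1.96 ± 0.56 in kidney (liver minus kidney, 1.48 ± 0.08, q = 1.72e-31, limma-voom). Of the genes that bear on renin release, 5 of 8 were tested, and all 5 were higher in kidney than in liver on TMM-scaled counts (limma-voom), beside 22.0% of all genes. A gene high in 1 organ alone can pass the filter, so this count is given as a description. The untested genes are named outside the naming rule. Nr1h3 was higher in liver in 41 of 47 strains and in kidney in 6. Ptger4 was higher in kidney in 23 strains and in liver in 4, and the rest were tied. Gja5 was higher in kidney in 8 strains and in liver in 1, and the rest were tied. Of the tested genes, Akr1b7 was higher in kidney in 38 of 47 strains although its mean TPM was higher in liver (11.2 against 6.87), since the CC006 liver alone held 475 TPM. The vitamin D receptor Vdr, a repressor of renin transcription, was at 113 ± 29.8 TPM in kidney, and Slc12a1, the salt transporter of the thick ascending limb, at 23.2 ± 15.0. Adrb1, the adrenergic receptor through which sympathetic nerves stimulate renin release, was instead highest in lung at 43.6 ± 19.8 TPM, against 1.76 ± 0.94 in kidney (lung minus kidney, 4.04 ± 0.11, q = 2.88e-56, limma-voom, 47 of 47 strains).

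Downstream of aldosterone, 5 of 6 genes were tested. Hsd11b2, which protects the mineralocorticoid receptor from glucocorticoids, was at 52.7 ± 16.4 TPM in kidney and 2.96 ± 1.48 in lung (lung minus kidney, -4.79 ± 0.09, q = 6.06e-73, limma-voom). The sodium channel subunits Scnn1a and Scnn1g were higher in lung, at 172 ± 64.1 and 132 ± 47.2 TPM, than in kidney, at 29.6 ± 7.83 and 25.3 ± 6.94, in 47 of 47 strains (1.94 ± 0.10 and 1.78 ± 0.07, q = 5.66e-36 and 1.89e-44, limma-voom). Among the kininogens, the precursors of bradykinin, Kng1 had a median of 377 TPM in liver (99.2 to 858), 0.61 in kidney (0 to 41.2) and 0.43 in lung (0 to 39.1). Its close paralog Kng2 was at 30.5 ± 13.8 TPM in kidney and 33.2 ± 14.6 in liver (liver minus kidney, 0.97 ± 0.12, under 1 log2 unit). How reads were divided between these paralogs is uncertain. Cpn1, the catalytic subunit of the plasma carboxypeptidase that trims kinins, was at 280 ± 91.4 TPM in liver and exceeded lung by 6.75 ± 0.20 and kidney by 6.24 ± 0.20, each in 47 of 47 strains (q = 7.53e-55 and 7.89e-51, limma-voom).

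The genes whose strain pattern was most like that of each member, by Spearman's rho over the 47 libraries of the organ where the member was highest, are given without a test. For Agt in liver they were 2510039O18Rik, Cd81 and Lmf2 (rho = 0.72, 0.70 and 0.64 among 8825 genes). For Ren1 in kidney they were Tmem163, Uap1 and Tm4sf1 (0.56, 0.54 and 0.51 among 10086 genes), the first pair of which lie on chromosome 1, as Ren1 does. For Ace in lung they were Phf12, Wasf2 and Iqsec1 (0.81, 0.78 and 0.75 among 11628 genes), the first on chromosome 11 with Ace. For Agtr1a in liver they were Mmp14, Clint1 and Rmnd5b (0.78, 0.62 and 0.60). For Agtr1b in lung they were Efcc1, Gm10785 and Pcdhgc5 (0.53, 0.48 and 0.47), and for Mas1 in lung Rcl1, Dcp1b and Cirbp (0.60, 0.56 and 0.52). For Enpep in kidney they were Hao2, Tet2 and Rilp (0.56, 0.53 and 0.50), and Hao2 and Tet2 are on chromosome 3, as is Enpep. For Mme in lung they were Tril, Rbms1 and Mapre2 (0.64, 0.62 and 0.61). For kidney Agt, which was added after its values were seen, the highest were Bvht, Ankrd10 and Wipi1 (0.50, 0.49 and 0.49 among 10085 genes), and Ankrd10 is on chromosome 8 with Agt. These libraries share depth and scaling, and the highest values were picked from all genes compared. Sharing a chromosome does not place genes close together. Ankrd10 lies at chr8:11611583-11635754, Tmem163 at chr1:129383123-129574673, Uap1 at chr1:172072069-172105088, Phf12 at chr11:77796256-77844041, Hao2 at chr3:98678500-98697162 and Tet2 at chr3:133126643-133207354. How often like genes share the chromosome of a member was not tested.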

How the data were processed

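Total RNA from liver, lung and kidney was sequenced after ribosomal depletion as 50-base single-end reads. The authors aligned reads to strain-specific pseudo-genomes and transcriptomes (Build37, RefSeq) with STAR 2.5.3a and quantified uniquely aligned reads with RSEM. The expected count deposited for each gene is the scale of the tests, and 25 expected counts over all files were not whole and were rounded. The TPM values deposited by the authors were used as levels, and the FPKM values deposited by the authors were not used. Sequencing batch is not among the labels, so the batch term that the study held in its own model was left out.

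Counts were scaled by TMM (edgeR 4.0.16). Genes above 1 CPM in at least 30% of libraries (12127) were tested by limma-voom in R 4.3.3 (limma version 3.58.1), the model holding tissue and strain, and Benjamini-Hochberg adjustment, and a call needed q ≤ 0.1 and 1 log2 unit. The pairing by strain follows the study's use of 1 mouse per strain. The median correlation of same-strain deviations was 0.17, 0.17 and 0.21 for liver and lung, liver and kidney, and lung and kidney. Correlations and SD comparisons used log2 CPM (prior count 1) and 100000 two-sided permutations in scipy 1.17.1 and numpy 2.4.6 under Python 3.11.15, with tables from pandas 2.3.3 and plots from matplotlib 3.10.9,, for genes with a median count above 3. Alternatives included DESeq2 1.42.0 and are given in the closing section. The members, gene lists and tests were chosen with earlier results of these data known. Wider-list genes are named as the 3 with the highest mean TPM per role group, and like genes as the 3 of highest rho among genes with a median count of at least 10. The fit and the correlations were first tested on simulated data. Coordinates are from NCBIM37 with GENCODE vM1. Because strain is in the model, p-values of organ differences rest on how these differences vary over 47 strains with 1 mouse each. They do not measure the spread among strains.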

Additional observations from a re-analysis of the deposited data

How the results depend on the processing

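Agt, Agtr1a and Ace differences kept their direction in all comparisons under each of the 10 alternatives (DESeq2 size factors, edgeR's quasi-likelihood test, DESeq2, no low-count filter, no replicate block, only the 2 organs compared, log2(TPM + 1), log2(TPM + 0.1), without 11 strains with a library under 4e6 counts and, chosen after seeing the data, without CC006 and CC010). Without the replicate block the counts of members called stayed at 5, 5 and 3, so the paired fit changed none of them. On log2(TPM + 1), 2 members were called between liver and kidney in place of 5: Ace, Agtr1a, Mas1 and Mme fell under 1 log2 unit, Agt stayed called and Enpep was added. With no low-count filter, 5 were called between lung and kidney in place of 3, Ren1 and Agtr1b being added, and 12142 genes were called between liver and lung in place of 6657. With no fold threshold, 11333, 10633 and 11042 of all genes passed in place of 6657, 4440 and 5619, and of the wider list 24 and 23 passed between liver and kidney and lung and kidney in place of 15 and 14. TPM scaling changed the share of calls higher in the first organ from 43.2%, 40.045% and 53.2% to 12.6%, 16.3% and 70.5% on log2(TPM + 1). The cause of these differences between scalings was not tested.

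Enpep between liver and lung reversed to -1.11 on log2(TPM + 1) and -1.13 on log2(TPM + 0.1). Near-zero differences between lung and kidney reversed. Mas1 was -0.028 with only the 2 organs and -0.046 without the low-depth strains. Mme was 0.19 with DESeq2 size factors, 0.027 with only the 2 organs, 0.050 without CC006 and CC010, 0.32 and 0.54 on log2(TPM + 1) and log2(TPM + 0.1), 0.027 with edgeR and 0.23 with DESeq2.

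The 5 correlations between organs became 0 on rank inverse normal values, 0 without the 2 farthest strains, 3 without the low-depth strains and 3 without CC006 and CC010. The 0 within organs became 24, 1, 2 and 0 in the same order. The 10 differences in spread became 2 on log2(TPM + 1), where the SD difference reversed for Ace between lung and kidney (0.087), for Mas1 between liver and lung (-0.098) and for Mas1 between liver and kidney (-0.21). Depth limits Ren1, Agtr1b, Agtr2 and, in liver, Ace, Mme and Mas1.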
